A study of Mus musculus with 8 samples.

Results

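Pericentral Wnt target genes are genes that hepatocytes around the central vein of the liver lobule transcribe under Wnt/β-catenin signalling. *Glul*, *Oat*, *Lgr5*, *Axin2*, *Tbx3*, *Rnf43*, *Znrf3*, *Slc1a2*, *Rhbg* and *Tcf7l2* were followed here. *Tcf7l2* is counted with the targets, although it encodes a factor that acts with β-catenin on such genes. The 10 genes were chosen by name from general knowledge of this pathway, but with earlier results of these data known. Counts over them are thus a description. Each was found in the count table by its Ensembl identifier, 10 of the 45706 identifiers deposited. All 10 members passed the filter on low counts and were among the 15491 genes tested. The question was whether their RNA differed between livers that received a virus against *Srsf10*, which encodes an SR family splicing factor, and livers that received a control virus.

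Liver RNA came from 8 male mice of the strain labelled C56B6/J. The 4 livers labelled *Srsf10-kd* (genotype label Srsf10KD) came from mice given an AAV2/8 virus carrying a mirE/shRNA to *Srsf10*, and the 4 *Ctrl* livers (genotype label WT) from mice given the same kind of virus with a control mirE/shRNA. All mice were injected by tail vein at 6 weeks of age and were fed fat as 60% of calories from 4 weeks after injection, for 12 weeks, so that both groups carried virus and were fed this diet and no untreated or lean liver enters the comparison. The ubiquitous CBA promoter drives the mirE/shRNA, so restriction to hepatocytes rests on the virus and not on the promoter. Each column of the table was 1 liver, and p-values weigh the difference between the groups against the spread between these livers.

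In the liver lobule, endothelial cells of the central vein secrete Wnt2, Wnt9b and R-spondin 3, which reach the neighbouring hepatocytes. Wnt binds a Frizzled receptor and an LRP5 or LRP6 co-receptor, the complex of AXIN, APC and GSK3 that destroys β-catenin is held off, and β-catenin enters the nucleus and activates genes together with TCF/LEF factors such as TCF7L2. Hepatocytes next to the central vein then make enzymes of glutamine synthesis and of drug metabolism, while periportal hepatocytes make those of urea synthesis and gluconeogenesis. In whole-liver RNA, fewer cells of a type and less RNA per cell cannot be told apart, and neither can the position of a cell in the lobule.

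The livers were first checked against their labels. The targeted gene *Srsf10* was at 31.6, 33.7, 35.3 and 30.9 CPM (a gene's share of the library on a fixed scale, after edgeR's TMM scaling) in *Ctrl* 1 to 4 and at 34.3, 34.0, 41.0 and 36.5 CPM in *Srsf10-kd* 1 to 4, with means of 32.9 ± 1.99 and 36.4 ± 3.24 CPM (SD, n = 4 each). Knockdown of the gene's RNA was thus not visible in the livers labelled *Srsf10-kd* (log2 fold change 0.15, standard error 0.10, edgeR adjusted p = 0.378), and the value was 0.29 with the trend on gene length, described next, removed. The livers are named below by their label, and every direction holds for the labels as deposited. Depth was between 50456404 and 59697241 counts per liver. *Srsf10-kd* 3 stood apart on the first principal component of all tested genes, at 67.4 against 1.92 to 11.5 for the other *Srsf10-kd* livers and -41.8 to -2.91 for *Ctrl*. The slope of log2 level, relative to the gene's mean, on log2 exon length was -0.15 in this liver, -0.05 to -0.02 in the other *Srsf10-kd* livers and -0.03 to 0.11 in *Ctrl*, so longer genes read lower in *Srsf10-kd* libraries than in *Ctrl* 1, 2 and 4, and values with each library's length trend removed are given beside several of the results. All 10 hepatocyte markers checked, *Alb* among them, were detected in the livers.

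TCF/LEF factors bind a short consensus in DNA, and promoter windows were searched for its letters (CTTTG, then A or T, then again A or T, on both strands). RefSeq windows on GRCm38.p6, from 250 bases before to 50 bases after a start site, were at hand for 6 of the 10 members, 8 windows in all. *Glul*, *Oat* and *Axin2* had 1 window each and *Rnf43* and *Tcf7l2* had a pair each, and of all these only the second window of *Tcf7l2* held a match. The single window of *Slc1a2* also held one. Of all 32851 windows of the same length, 16.9% held a match, beside 2 of these 8. Both windows are printed 5′ to 3′ with the matched letters in capitals, as the windows that held a match. Any link between a match and the level of a gene was not tested. The *Slc1a2* window lies at chr2:102706188-102706487 on the plus strand, holds the start of 2 of the 12 annotated transcripts, 47779 bases into the gene from its first annotated start, and carries CTTTGAT on the minus strand 207 bases before the start. The *Tcf7l2* window lies at chr19:55895071-55895370 on the plus strand, inside an intron in the GENCODE M21 annotation and 189 bases from the nearest annotated start, and carries CTTTGTT on the plus strand 14 bases before the start.
*Slc1a2*: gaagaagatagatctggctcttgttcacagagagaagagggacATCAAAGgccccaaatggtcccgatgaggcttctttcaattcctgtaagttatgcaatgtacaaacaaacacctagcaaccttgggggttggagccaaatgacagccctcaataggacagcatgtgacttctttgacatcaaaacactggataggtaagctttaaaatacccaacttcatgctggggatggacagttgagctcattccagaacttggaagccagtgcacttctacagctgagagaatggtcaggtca
*Tcf7l2*, second window: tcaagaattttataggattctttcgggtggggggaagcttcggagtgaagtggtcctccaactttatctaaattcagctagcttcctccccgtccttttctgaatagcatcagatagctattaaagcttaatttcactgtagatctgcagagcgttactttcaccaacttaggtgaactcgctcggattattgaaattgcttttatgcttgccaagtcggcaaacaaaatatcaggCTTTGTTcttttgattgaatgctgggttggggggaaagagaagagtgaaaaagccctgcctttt
The match of letters is a description of these windows and was not tested as a binding site, and the windows do not cover distal sites.

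No member passed the test. Of the 10 members, 0 had an edgeR adjusted p under 0.05, against 0.071% of all 15491 genes (11 genes, all lower). At an unadjusted p under 0.05 there were 5 members against 21.8% of all genes, with *Axin2*, *Tbx3*, *Rnf43* and *Slc1a2* at lower levels in the *Srsf10-kd* livers and *Tcf7l2* at higher ones. This count dropped to 2 members, *Slc1a2* and *Tcf7l2*, without *Ctrl* 2, without *Ctrl* 4, without *Srsf10-kd* 1 or without *Srsf10-kd* 3. DESeq2 called 2 members, *Slc1a2* and *Tcf7l2* (background 5.27% of its genes), and limma-voom, run with quality weights for the samples, called *Slc1a2* and *Tcf7l2* too (background 11.7%). The log2 fold change was below 0 in 7 of 10 members, against 48.7% of all genes, and its median was -0.26 over the members and 0.01 over all genes, or -0.22 and 0.01 with the length trend removed.

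**Figure D1:**
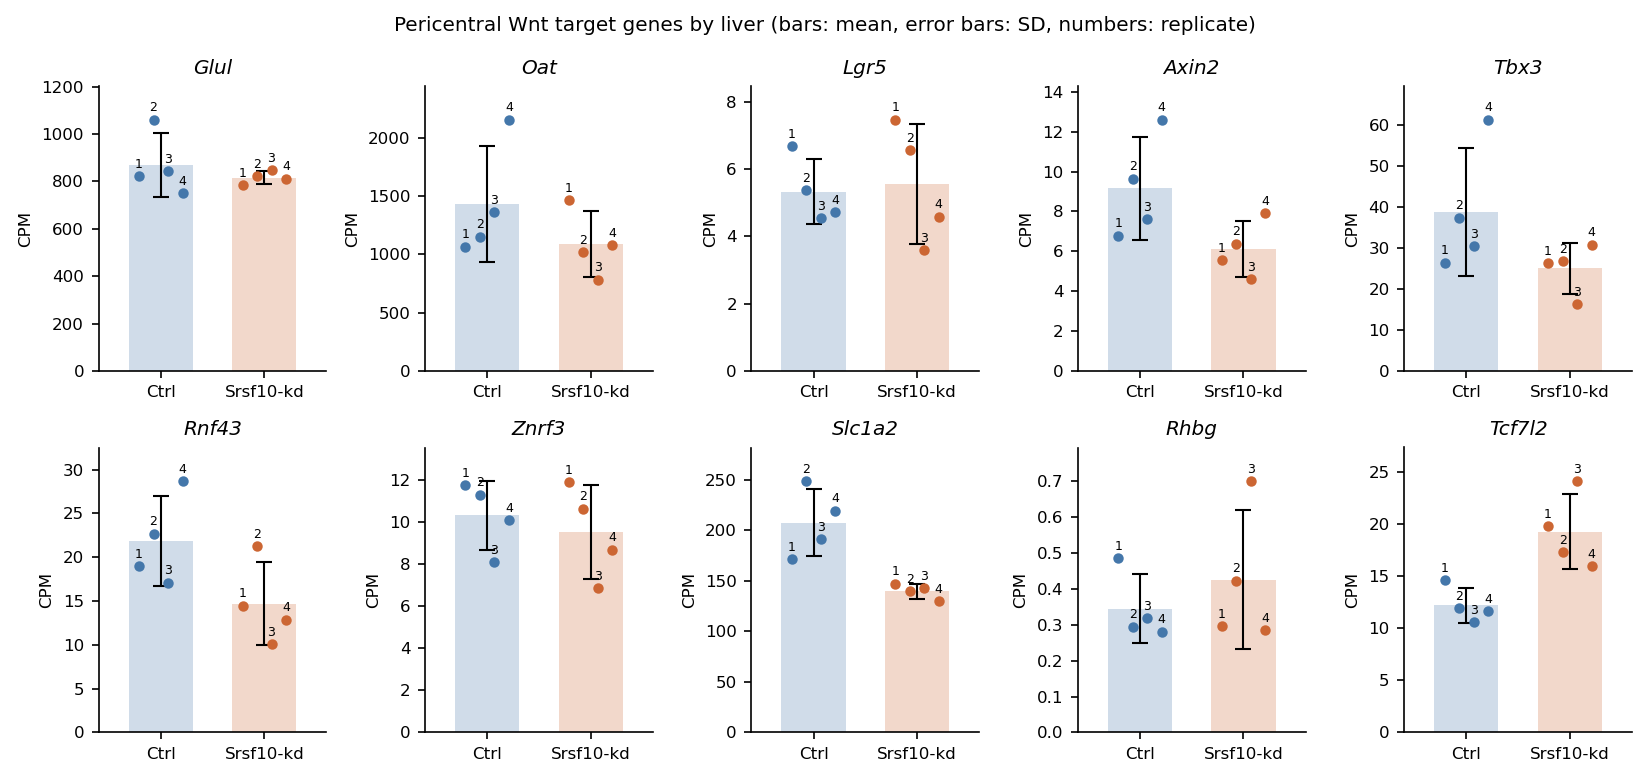
Level of each of the 10 pericentral Wnt target genes (CPM, y axis from 0) in the 4 Ctrl and 4 Srsf10-kd livers, with bars for the mean, error bars for the SD and a numbered point for each liver. Slc1a2 (all Ctrl livers at or above 171 CPM, all Srsf10-kd livers at or below 147 CPM) and Tcf7l2 (Ctrl up to 14.6 CPM, Srsf10-kd from 16.0 CPM) are the panels without overlap.

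The metabolic targets carry ammonia and glutamate into glutamine. *Slc1a2* (ENSMUSG00000005089, chromosome 2, 102658659 to 102790784, plus strand) encodes the glutamate transporter GLT-1, through which pericentral hepatocytes take up glutamate. It was at 171, 248, 191 and 219 CPM in *Ctrl* 1 to 4 and at 147, 139, 142 and 130 CPM in *Srsf10-kd* 1 to 4. Every *Srsf10-kd* liver was below every *Ctrl* liver, as in 7.53% of all genes, and the *Srsf10-kd* livers lay close together. The means were 208 ± 33.6 and 140 ± 7.39 CPM (SD, n = 4 each). The log2 fold change was -0.57 (standard error 0.13), with adjusted p = 0.113 by edgeR, 0.00312 by DESeq2 and 0.0173 by limma-voom. A two-sided exact permutation test, which has 70 ways to split the livers, gave p = 0.0286, the smallest it allows. *Slc1a2* has the longest exon sequence of the members, 13133 bases, and with the length trend removed its log2 fold change was -0.31 (edgeR adjusted p = 0.253). Leaving out each liver in turn kept it between -0.66 and -0.48.

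*Glul* (ENSMUSG00000026473, chromosome 1, 153899944 to 153909723, plus strand) encodes glutamine synthetase, which joins ammonia to glutamate and is the classical marker of the innermost pericentral hepatocytes. It was at 822, 1061, 842 and 751 CPM in *Ctrl* 1 to 4 and at 785, 823, 848 and 811 CPM in *Srsf10-kd* 1 to 4. The *Srsf10-kd* range lay inside that of *Ctrl*, which *Ctrl* 2 alone carried above 848 CPM. The means were 869 ± 134 and 817 ± 26.4 CPM (SD, n = 4 each), with a log2 fold change of -0.09 (standard error 0.13, edgeR adjusted p = 0.683) and a 95% interval (normal approximation) from -0.34 to 0.16. Without *Ctrl* 2 the log2 fold change was 0.02, and with the length trend removed it was -0.14.

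*Oat* (ENSMUSG00000030934, chromosome 7, 132557478 to 132576398, minus strand) encodes ornithine aminotransferase, which turns ornithine into a precursor of glutamate. It was at 1066, 1152, 1365 and 2158 CPM in *Ctrl* 1 to 4 and at 1469, 1023, 784 and 1082 CPM in *Srsf10-kd* 1 to 4. *Ctrl* 4 was the highest liver, *Srsf10-kd* 3 the lowest, and the groups overlapped. Its log2 fold change was -0.40 (standard error 0.25, edgeR adjusted p = 0.356), without *Ctrl* 4 it was -0.13, and with the length trend removed -0.52.

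*Rhbg* (ENSMUSG00000104445, chromosome 3, 88242874 to 88254709, minus strand) encodes an ammonium transporter of the Rh family found on pericentral hepatocytes. Only 16 to 36 of its reads were counted per liver, at 0.281 to 0.486 CPM in *Ctrl* and 0.285 to 0.700 CPM in *Srsf10-kd*, where *Srsf10-kd* 3 was highest. The log2 fold change of 0.29 (standard error 0.34, edgeR adjusted p = 0.604) was -0.05 without that liver and 0.10 with the length trend removed, and its sign also turned in limma-voom (-0.08). The level is uncertain in another way, since 61.4% of its exon bases overlap *Gm38392* on the same strand, a gene with 0 to 2 counts per liver.

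The feedback members limit the signal that induces them. *Axin2* (ENSMUSG00000000142, chromosome 11, 108920349 to 108950783, plus strand) encodes a scaffold of the complex that destroys β-catenin and is the most widely used readout of the pathway. It was at 6.79, 9.65, 7.62 and 12.6 CPM in *Ctrl* 1 to 4 and at 5.56, 6.38, 4.59 and 7.93 CPM in *Srsf10-kd* 1 to 4. *Ctrl* 4 was the highest and *Srsf10-kd* 3 the lowest liver, and *Srsf10-kd* 4 lay above *Ctrl* 1 and *Ctrl* 3. The means were 9.16 ± 2.59 and 6.12 ± 1.41 CPM (SD, n = 4 each), with a log2 fold change of -0.58 (standard error 0.22, edgeR adjusted p = 0.187, exact permutation p = 0.0857). Without *Ctrl* 4 it was -0.39, and with the length trend removed -0.50.

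*Rnf43* (ENSMUSG00000034177, chromosome 11, 87662722 to 87735539, plus strand) and *Znrf3* (ENSMUSG00000041961, chromosome 11, 5276324 to 5444847, minus strand) encode related ubiquitin ligases that remove Frizzled receptors from the membrane until R-spondin holds them off. *Rnf43* was at 19.0, 22.7, 17.1 and 28.7 CPM in *Ctrl* 1 to 4 and at 14.5, 21.3, 10.1 and 12.9 CPM in *Srsf10-kd* 1 to 4. Of the *Srsf10-kd* livers only *Srsf10-kd* 2 reached into the *Ctrl* range. The means were 21.9 ± 5.10 and 14.7 ± 4.75 CPM (SD, n = 4 each), with a log2 fold change of -0.58 (standard error 0.23, edgeR adjusted p = 0.202, exact permutation p = 0.0857), or -0.45 with the length trend removed.

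*Znrf3* was at 11.8, 11.3, 8.12 and 10.1 CPM in *Ctrl* 1 to 4 and at 11.9, 10.6, 6.87 and 8.69 CPM in *Srsf10-kd* 1 to 4. The groups overlapped over most of their range, and both the highest and the lowest liver were *Srsf10-kd*. Its log2 fold change was -0.12 (standard error 0.19, edgeR adjusted p = 0.718), and it was 0.01 without *Srsf10-kd* 3 and 0.04 with the length trend removed. Whether the pair of ligases differed from each other in response was not tested.

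*Lgr5* (ENSMUSG00000020140, chromosome 10, 115450311 to 115587780, minus strand) encodes an R-spondin receptor that marks pericentral hepatocytes. It was at 6.67, 5.36, 4.54 and 4.70 CPM in *Ctrl* 1 to 4 and at 7.46, 6.55, 3.58 and 4.58 CPM in *Srsf10-kd* 1 to 4. The *Srsf10-kd* livers held both the highest and the lowest value. Its log2 fold change was 0.06 (standard error 0.23, edgeR adjusted p = 0.892), 0.26 with the length trend removed, and its sign turned when *Ctrl* 3, *Srsf10-kd* 1 or *Srsf10-kd* 2 was left out.

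The remaining members are transcription factors. *Tbx3* (ENSMUSG00000018604, chromosome 5, 119670669 to 119684724, plus strand) encodes a T-box repressor of pericentral hepatocytes. It was at 26.4, 37.4, 30.4 and 61.3 CPM in *Ctrl* 1 to 4 and at 26.2, 26.8, 16.3 and 30.8 CPM in *Srsf10-kd* 1 to 4. *Ctrl* 4 stood far above the other livers and *Srsf10-kd* 3 below them. The means were 38.9 ± 15.6 and 25.0 ± 6.18 CPM (SD, n = 4 each), with a log2 fold change of -0.64 (standard error 0.27, edgeR adjusted p = 0.216, exact permutation p = 0.171), the most negative of the members, -0.33 without *Ctrl* 4 and -0.51 with the length trend removed.

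*Tcf7l2* (ENSMUSG00000024985, chromosome 19, 55741820 to 55933654, plus strand) encodes the TCF factor through which β-catenin acts on hepatocyte genes. It was at 14.6, 11.9, 10.6 and 11.7 CPM in *Ctrl* 1 to 4 and at 19.8, 17.3, 24.2 and 16.0 CPM in *Srsf10-kd* 1 to 4. Every *Srsf10-kd* liver was above every *Ctrl* liver, as in 6.73% of all genes, and *Srsf10-kd* 3 was the highest. The means were 12.2 ± 1.72 and 19.3 ± 3.60 CPM (SD, n = 4 each). The log2 fold change was 0.66 (standard error 0.15), with adjusted p = 0.115 by edgeR, 0.00977 by DESeq2 and 0.0263 by limma-voom, and the exact permutation p was 0.0286. It was 0.54 without *Srsf10-kd* 3, the lowest value in any fit that left out a liver, and 0.86 with the length trend removed. Counts sum over all 22 annotated transcripts of *Tcf7l2*, so the isoform behind this difference was not analysed here.

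Markers of bile duct cells were read in the same libraries. Of the 9 tested cholangiocyte markers, the keratin gene *Krt19* and the adhesion gene *Epcam* among them, 8 had a log2 fold change above 0. The median of the 9 was 0.56 (0.41 with the length trend removed, 0.40 without *Srsf10-kd* 3). The edgeR test was passed by 0, and 5 had an unadjusted p under 0.05, against 21.8% of all genes. DESeq2 called *Cldn7* and *Krt19*, and limma-voom these and *Cftr*. *Krt19*, *Spp1* and *Cldn7* were higher in every *Srsf10-kd* liver than in any *Ctrl* liver, against 6.73% of all genes. The summed level of the 10 listed markers was 47.6 to 70.7 CPM in *Ctrl* and 60.6 to 96.7 CPM in *Srsf10-kd*, with *Srsf10-kd* 3 the highest, and none of them was at 0. The part of these cells in the level of *Tcf7l2* was not tested.

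**Figure D2:**
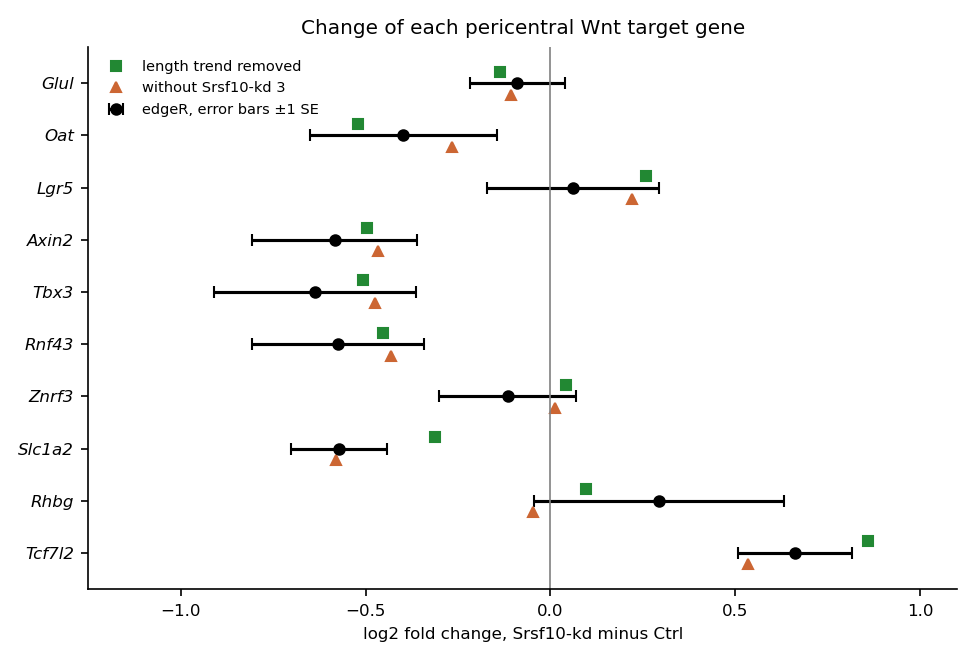
Log2 fold change (Srsf10-kd minus Ctrl, x axis) of each member from edgeR (circles, error bars 1 standard error) beside the value with each library's length trend removed (squares) and the value without Srsf10-kd 3 (triangles). Tcf7l2 stays above 0 and Axin2, Tbx3, Rnf43, Slc1a2, Oat and Glul below 0 in all 3 fits, while Znrf3 and Rhbg cross 0.

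Single livers set much of the spread between the members. *Srsf10-kd* 3 was the lowest of the 8 livers in 6 members (*Oat*, *Lgr5*, *Axin2*, *Tbx3*, *Rnf43* and *Znrf3*), against 26.9% of all genes, and the highest in *Rhbg* and *Tcf7l2*, against 29.8% of all genes. *Ctrl* 4 was the highest in 4 members (*Oat*, *Axin2*, *Tbx3* and *Rnf43*), against 21.2% of all genes, and the lowest in *Glul* and *Rhbg*, against 20% of all genes. These are the pair of livers at the ends of the first principal component. Relative to each gene's mean over the 8 livers, the median of the members was -0.53 in *Srsf10-kd* 3 on the log2 scale, -0.16 to 0.05 in the other *Srsf10-kd* livers and -0.01 to 0.27 in *Ctrl*. Without *Srsf10-kd* 3 the median log2 fold change of the members was -0.19.

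**Figure D3:**
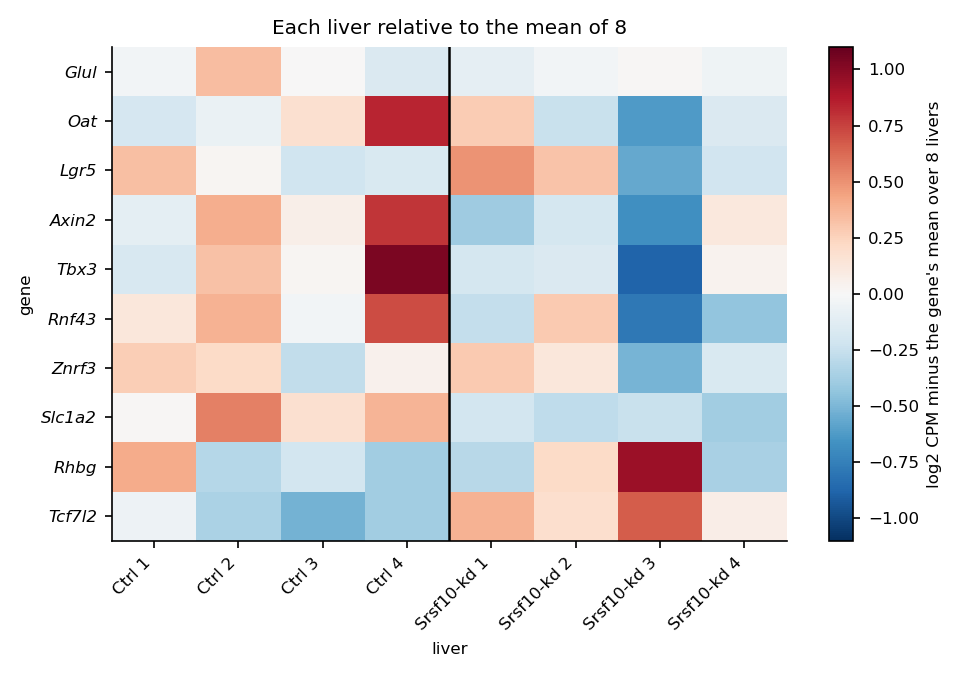
Log2 CPM of each member (rows) in each liver (columns) minus the gene's mean over the 8 livers, red above and blue below that mean. Ctrl 4 is the highest for Oat, Axin2, Tbx3 and Rnf43, Srsf10-kd 3 is the lowest for the same 4 genes, and the Tcf7l2 row runs the other way.

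Members thus formed no single profile over the livers. Likeness was measured as the root mean square difference between log2 CPM profiles over the 8 livers, each centred on its own mean, among the 10966 tested genes with a mean log2 CPM of at least 1. The genes nearest to *Axin2* were *Erbb3*, a receptor tyrosine kinase (0.14), the member *Tbx3* (0.14) and *Fam13a* (0.15). The next members were *Rnf43* at 0.28, *Slc1a2* at 0.29 and *Oat* at 0.31, while *Lgr5* was at 0.56 and *Tcf7l2* at 0.77. Relative to its own mean, *Glul* was at 0.34 in *Ctrl* 2 and at -0.16 to 0.02 in the other livers. The genes nearest to it were *Rab23*, *Tia1* and *Lgalsl* (0.07 each), and the nearest member was *Slc1a2* at 0.28. All 8 points of each profile share the same libraries and their depth, and no test was made.

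Levels were compared between genes per kilobase of exon sequence, merged over all annotated transcripts. For some members this is far longer than any single transcript, at 10264 against 4793 bases for *Lgr5* and 8775 against 3715 for *Tcf7l2*. The order of the signalling genes was not checked with another length. *Oat* had the highest level (535 CPM per kb, mean of 8 livers, SD 177), then *Glul* (254, SD 28.1) and *Slc1a2* (13.2, SD 3.25), with ranges over the livers that did not overlap between these neighbours. *Tbx3* followed (4.82 CPM per kb), then *Rnf43* (2.79), *Tcf7l2* (1.80), *Axin2* (1.39) and *Znrf3* (1.26), and the ranges of each of these and the next overlapped. *Lgr5* (0.529 CPM per kb) lay below *Znrf3* in every liver. *Rhbg* read 0.199 CPM per kb over its whole exon length, but it was not ranked, because most of that length overlaps *Gm38392*. The enzymes *Oat* and *Glul* and the glutamate transporter thus lay above the signalling genes on this scale.

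The signals that act on these genes were measured in the same libraries. Of the 25 ligands, secretion factors and secreted antagonists listed, 13 passed the filter, 0 passed the edgeR test and the median log2 fold change was -0.02. *Dkk2*, a secreted Wnt antagonist at under 0.6 CPM in every liver, was the 1 gene with an unadjusted p under 0.05 and the 1 called by limma-voom (higher), while DESeq2 called 0. Genes named in this way beside a count of their list were named after their values were seen. *Wnt2*, the ligand of central vein and sinusoidal endothelium, was at 3.66 to 4.99 CPM in *Ctrl* and 3.46 to 4.20 CPM in *Srsf10-kd* (log2 fold change -0.15, standard error 0.15, edgeR adjusted p = 0.551). *Wnt9b*, the ligand of central vein endothelium, was at 0.660 to 1.04 and 0.525 to 1.15 CPM (-0.14, standard error 0.26, adjusted p = 0.755). *Rspo3*, the R-spondin that holds off RNF43 and ZNRF3, was at 4.83 to 5.97 and 4.96 to 8.01 CPM (0.26, standard error 0.16, adjusted p = 0.341). For all of these the groups overlapped. *Notum*, whose product inactivates Wnt and which is itself a pericentral Wnt target, was the most abundant of the list, at 46.8 ± 5.22 and 46.5 ± 7.66 CPM (SD, n = 4 each). *Wnt5b* and *Wls*, the Wnt carrier of secreting cells, came next with log2 fold changes of -0.01 and 0.05.

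Receptor genes mostly had lower values in the *Srsf10-kd* livers. Of the 13 tested of 20 listed, 11 had a log2 fold change below 0 with a median of -0.35, or -0.23 with the length trend removed, and 0 passed the edgeR test. At an unadjusted p under 0.05 there were 5 of 13, all lower, against 21.8% of all genes in either direction. *Fzd1*, *Fzd4*, *Fzd5*, *Fzd6* and *Fzd7* were lower in every *Srsf10-kd* liver than in any *Ctrl* liver, 5 of 13 against 7.53% of all genes. *Fzd4* had the largest difference, at 15.7, 17.0, 14.6 and 15.3 CPM in *Ctrl* 1 to 4 and at 6.19, 9.51, 4.75 and 7.23 CPM in *Srsf10-kd* 1 to 4. Its log2 fold change was -1.18 (standard error 0.19, edgeR adjusted p = 0.0769), -1.06 with the length trend removed and -1.04 without *Srsf10-kd* 3. DESeq2 called *Fzd4*, *Fzd5* and *Fzd7*, and limma-voom called *Fzd4*, *Fzd7*, *Fzd8* and *Lrp6*. With edgeR, the adjusted p of *Fzd4* was 0.0321 to 0.292 over the fits that left out a liver (0.0321 without *Ctrl* 3, 0.0356 without *Srsf10-kd* 3, above 0.05 in the others), 0.0908 with the length trend removed and 0.0395 with the replicate number as a block. That of *Lrp6* was 0.0378 to 0.335 over the same fits, under 0.05 only without *Ctrl* 3. These Frizzled genes were picked for description after their values were seen. The receptor list itself was drawn up with earlier results of these data known, so its share of 5 of 13 is a description and not independent evidence.

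**Figure D4:**
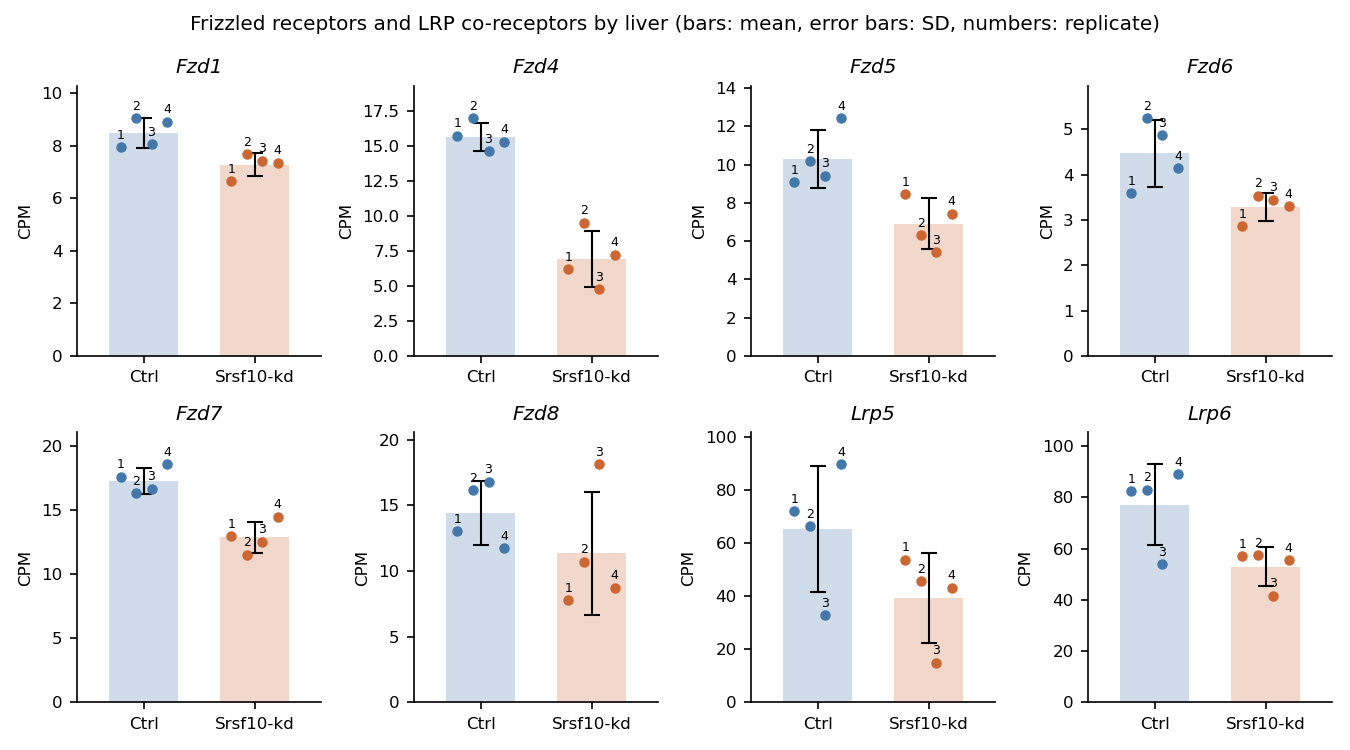
Level (CPM, y axis from 0) of the tested Frizzled receptor genes and the LRP co-receptor genes in the 4 Ctrl and 4 Srsf10-kd livers, with bars for the mean, error bars for the SD and a numbered point for each liver. Fzd1, Fzd4, Fzd5, Fzd6 and Fzd7 show no overlap between the groups, and Fzd8, Lrp5 and Lrp6 overlap.

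The most abundant receptor genes were *Tspan12*, *Lrp6* and *Lrp5*. *Tspan12*, a tetraspanin that works with FZD4, was at 194 ± 20.6 and 199 ± 12.6 CPM (SD, n = 4 each). *Lrp6* was at 77.2 ± 15.7 and 52.9 ± 7.59 CPM, a log2 fold change of -0.54 (standard error 0.17, edgeR adjusted p = 0.150) that was -0.27 with the length trend removed. *Lrp5* was at 33.0 to 89.8 CPM in *Ctrl* and 14.9 to 53.9 CPM in *Srsf10-kd*, with the lowest value in *Srsf10-kd* 3 and a log2 fold change of -0.73 (standard error 0.38, adjusted p = 0.280), or -0.46 without that liver.

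Inside the cell, 15 of the 16 listed genes of Dishevelled, the destruction complex and the tankyrases were tested. Their log2 fold change was below 0 in 13 with a median of -0.21, which was -0.14 with the length trend removed and -0.11 without *Srsf10-kd* 3, and 0 passed the edgeR test. *Apc*, *Gsk3b*, *Amer1* and *Tnks* had an unadjusted p under 0.05, all lower, 4 of 15 against 21.8% of all genes. The same 4 were called by limma-voom (background 11.7%), and *Tnks* by DESeq2 (background 5.27%). With the length trend removed, the log2 fold change went from -0.54 to -0.23 for *Apc*, from -0.24 to -0.03 for *Gsk3b* and from -0.53 to -0.33 for *Amer1*, with edgeR adjusted p of 0.343, 0.900 and 0.400. *Tnks*, one of the tankyrases that mark AXIN for destruction, was at 16.5, 20.8, 10.8 and 17.8 CPM in *Ctrl* 1 to 4 and at 6.29, 6.65, 1.83 and 4.72 CPM in *Srsf10-kd* 1 to 4. Its *Srsf10-kd* livers were all below its *Ctrl* livers, as in 7.53% of all genes, and *Srsf10-kd* 3 was the lowest. Its log2 fold change was -1.76 (standard error 0.35, edgeR adjusted p = 0.0948, DESeq2 adjusted p = 0.000167) and -1.49 with the length trend removed. With edgeR, the adjusted p of *Tnks* was 0.0361 to 0.322 over the fits that left out a liver (0.0361 without *Ctrl* 3, 0.0382 without *Srsf10-kd* 3, above 0.05 in the others), 0.127 with the length trend removed and 0.0280 with the replicate block. That of *Apc* was 0.0220 to 0.338, under 0.05 only without *Ctrl* 3. The other tankyrase, *Tnks2*, was at 56.9 ± 3.09 and 53.1 ± 1.71 CPM (log2 fold change -0.10), and the kinase genes *Csnk1a1* and *Csnk1d* had log2 fold changes of -0.05 and -0.10. With the length trend removed these were 0.12, 0.16 and -0.03.

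*Ctnnb1*, which encodes β-catenin itself, was at 203 to 234 CPM in *Ctrl* and 196 to 223 CPM in *Srsf10-kd*. The means were 221 ± 13.0 and 213 ± 11.6 CPM (SD, n = 4 each), with a log2 fold change of -0.05 (standard error 0.10, edgeR adjusted p = 0.765). Of the 15 tested genes of β-catenin and its nuclear partners, 0 passed the edgeR test, 7 were below 0 and the median was 0.05. *Chd8*, a chromatin remodeller gene, was the 1 gene with an unadjusted p under 0.05 and the 1 called by limma-voom (lower), and DESeq2 called 0. The log2 fold change of -0.38 was -0.07 with the length trend removed (edgeR adjusted p = 0.757), and of the edgeR fits that left out 1 liver it passed only in the one without *Ctrl* 3. The co-repressor genes *Tle1* and *Ctbp1*, the next most abundant, had log2 fold changes of -0.01 and 0.06. These are RNA levels, and the amount or place of β-catenin protein was not measured here.

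Other genes widely used as Wnt targets were set beside the members. Of the 10 tested of 12 listed, 0 passed the edgeR test, 0 had an unadjusted p under 0.05, neither DESeq2 nor limma-voom called any, and the median log2 fold change was 0.12. *Ccnd1*, a cyclin gene, ranged from 31.3 to 86.0 CPM in *Ctrl* and from 25.6 to 77.6 CPM in *Srsf10-kd*. *Cd44*, a cell surface receptor gene, had a log2 fold change of 0.19 (standard error 0.22, edgeR adjusted p = 0.616).

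Other pericentral and periportal genes had list medians that overlapped between the livers of both groups. Of the 26 other pericentral genes, 0 passed the edgeR, DESeq2 or limma-voom test and 15 were below 0, with a median of -0.09, and *Rnase4* (higher) and *Slc22a3* (lower) had an unadjusted p under 0.05. *Cyp2e1*, the cytochrome P450 of ethanol oxidation, was at 10916 ± 607 and 9650 ± 599 CPM (SD, n = 4 each), a log2 fold change of -0.18 (standard error 0.13, edgeR adjusted p = 0.405), or -0.33 with the length trend removed. *Aldh3a2*, a fatty aldehyde dehydrogenase gene, had -0.46 and *Pon1*, the gene of the secreted esterase paraoxonase, 0.32, with adjusted p = 0.230 and 0.253 by edgeR. Without *Srsf10-kd* 3 they were -0.30 and 0.18. Of the 18 periportal genes, 0 passed with any of the 3 tools, 11 were below 0 with a median of -0.08, and *Ctsc* (higher) had an unadjusted p under 0.05. *Cps1*, the entry enzyme of the urea cycle, was at 2287, 2684, 2362 and 6630 CPM in *Ctrl* 1 to 4 and at 2066, 2413, 1793 and 2305 CPM in *Srsf10-kd* 1 to 4, so that *Ctrl* 4 was again the highest liver, and the log2 fold change of -0.70 was -0.19 without it. *Pck1*, of gluconeogenesis, and *Ass1*, of the urea cycle, had log2 fold changes of -0.30 and -0.16, which were -0.15 and 0.07 without *Ctrl* 4. 

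Genes that share substrates with *Glul*, *Oat*, *Slc1a2* and *Rhbg* were listed as well. Of the 20 tested genes of glutamine, glutamate, ornithine and ammonia handling, 0 passed the edgeR test and the median log2 fold change was 0.06. At an unadjusted p under 0.05 there were 4 of 20, against 21.8% of all genes. They were *Otc*, *Aldh4a1* and *Slc1a1* at higher levels and *Slc38a4* at lower ones. Of the list, limma-voom called *Slc1a1* and DESeq2 called 0. *Glud1*, glutamate dehydrogenase, was at 1073 ± 192 and 1144 ± 69.2 CPM (SD, n = 4 each). *Slc38a4*, an amino acid transporter gene, was lower in every *Srsf10-kd* liver, as in 7.53% of all genes. It was at 1007 to 1368 CPM in *Ctrl* and 789 to 1003 CPM in *Srsf10-kd* (log2 fold change -0.32, standard error 0.13, edgeR adjusted p = 0.208). *Slc38a3*, which carries glutamine, overlapped between the groups (-0.12, standard error 0.14, adjusted p = 0.621). *Slc1a1*, which belongs to the same glutamate transporter family as *Slc1a2*, was higher in every *Srsf10-kd* liver, as in 6.73% of all genes. It was at 0.211 to 0.358 CPM in *Ctrl* and 0.404 to 0.603 CPM in *Srsf10-kd* (log2 fold change 0.90, standard error 0.25, edgeR adjusted p = 0.130). Its level was far below that of *Slc1a2*.

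**Figure D5:**
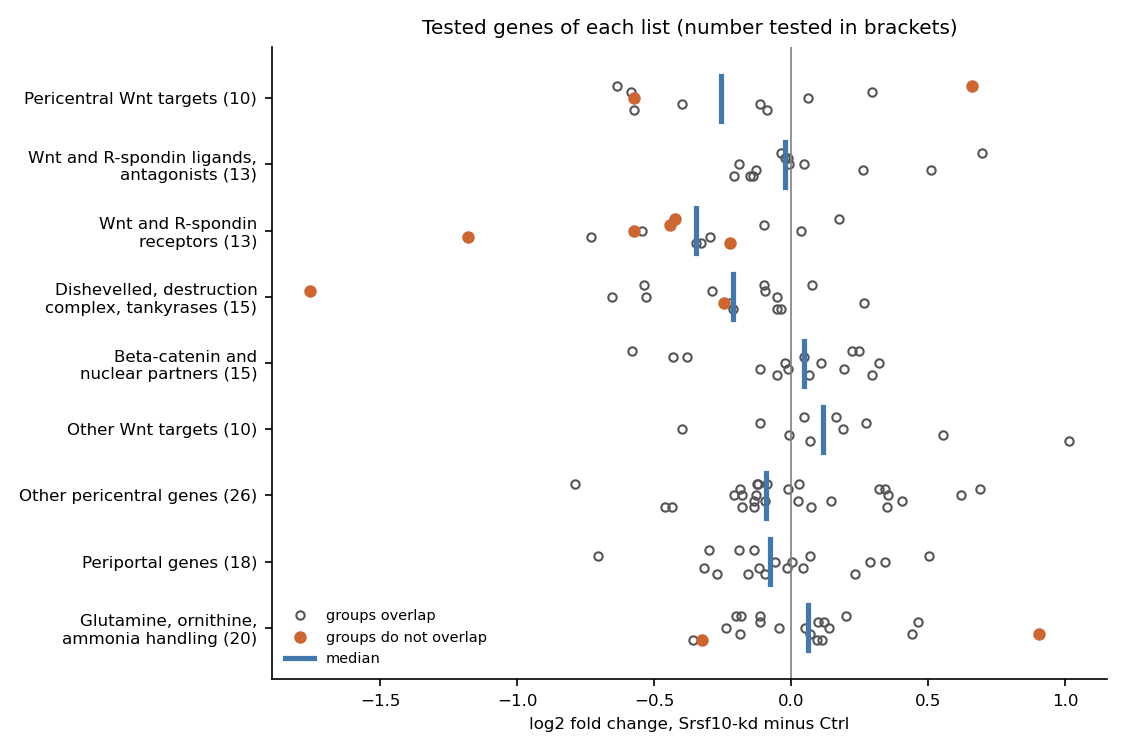
Log2 fold change (Srsf10-kd minus Ctrl, x axis) of each tested gene of the members and of 8 lists around them, with filled circles for genes whose groups did not overlap and a bar for the list's median. The receptors (median -0.35), the members (-0.26) and the destruction complex (-0.21) lie to the left of 0, and the pericentral (-0.09) and periportal (-0.08) lists near it. Without Srsf10-kd 3 the medians of the first 3 were -0.41, -0.19 and -0.11.

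Other cell types were checked by their markers, none of which was at 0. The summed level was 284 to 327 CPM in *Ctrl* and 271 to 310 CPM in *Srsf10-kd* for 12 endothelial markers, from the cells that make the Wnt signals. It was 334 to 363 and 289 to 451 CPM for stellate cell and fibroblast markers, 315 to 464 and 264 to 497 CPM for Kupffer cell and macrophage markers, and 11.4 to 14.9 and 8.64 to 12.9 CPM for lymphocyte and neutrophil markers. All of these summed ranges overlapped between the groups, and so did that of hepatocyte markers, at 94564 to 118893 and 110243 to 129111 CPM. Single markers did not all follow the sums. Of the 12 endothelial markers, 0 passed the edgeR test and 6 had an unadjusted p under 0.05, against 21.8% of all genes. These were *Pecam1*, *Lyve1*, *Thbd* and *Selp* at higher and *Stab2* and *Oit3* at lower levels in *Srsf10-kd*. *Lyve1* and *Thbd* were higher and *Oit3* lower in every *Srsf10-kd* liver, against 6.73% (higher) and 7.53% (lower) of all genes. Of the 6, limma-voom called 5 (not *Oit3*) and DESeq2 0. The stellate cell marker *Hgf* (log2 fold change -1.29) and the hepatocyte marker *Apob* (-0.93) were lower in every *Srsf10-kd* liver, with edgeR adjusted p of 0.131 and 0.115, and both were called by DESeq2 and limma-voom. Both were picked after their values were seen. Their lists were split evenly, with 6 of 12 stellate cell and 5 of 10 hepatocyte markers below 0. The median log2 fold change was -0.07 for stellate cell and 0.08 for hepatocyte markers. With the length trend removed these medians were -0.02 and -0.20, so the even split of the hepatocyte markers depends on that setting. In these lists limma-voom also called *Reln* and *Hnf4a* (both lower), while *Apoa2* had a log2 fold change of 0.53 (edgeR adjusted p = 0.214). The part of these cells in the levels of the members was not tested.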

How the data were processed

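Per the labels and the study's methods, liver RNA was poly(A)-selected, made into NEBNext Ultra II libraries and aligned by the authors to GRCm38 with STAR 2.7.7a, and the deposited values are raw counts per Ensembl gene without normalization. Which annotation release, strand setting and read filters were used is not given in the sources used here. Counts were analysed in R 4.3.3 with edgeR 4.0.16 (TMM, filterByExpr, quasi-likelihood fit on condition alone, two-sided, Benjamini-Hochberg over the 15491 genes tested, threshold 0.05), and standard errors are the log2 fold change divided by the square root of the F statistic. DESeq2 (a tool the study also used, here in version 1.42.0) and limma 3.58.1 were alternatives, beside other size factors, library size only, other filters on low counts, the replicate number as a block, removal of each library's lowess trend (span 0.5) on log2 exon length, and each liver left out in turn. Log2 levels used a prior count of 2.

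Symbols, positions and exon lengths came from GENCODE M21, which holds 45143 of the 45706 identifiers. Exon length is that of all annotated transcripts of a gene merged, also in the length trend. Genes named are the members, *Srsf10*, *Wnt2*, *Wnt9b*, *Rspo3*, *Ctnnb1*, the 3 most abundant genes and any called gene of each pathway or zonation list, and the 3 genes nearest in profile to *Glul* and to *Axin2*; other names are marked as picked later. *Pycr3* matched no symbol. The members and lists were chosen with earlier results of these data known. On simulated counts with 200 genes changed by 1.5 on the log2 scale in this comparison, edgeR recovered 171 (85.5%) with 8 false calls over 15285 genes, limma-voom 172 with 9 over 15285 genes, and DESeq2 182 with 41 over 15491 genes. The members changed by -0.64 to 0.66, so this recovery does not tell how often changes of their size are found. The simulated libraries also held no length trend and no outlying liver. No pair of libraries was a duplicate (chi-square over degrees of freedom at least 46.5 in all 28 pairs). Replicate numbers were shared by the groups, and their deviations correlated at -0.18, 0.21, 0.27 and 0.22. The best match had the same number for *Ctrl* 2 and *Ctrl* 3 but not for *Ctrl* 1 and *Ctrl* 4. Whether the numbers pair the livers was thus not settled, and the main fit did not use them.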

Additional observations from a re-analysis of the deposited data

Results flagged for a closer look

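A pair of list summaries put *Srsf10-kd* 2 far from the other livers of its group. The median deviation of the periportal genes from each gene's mean over the 8 livers was 0.238 on the log2 scale in *Srsf10-kd* 2 and between -0.123 and -0.0625 in the other 3 *Srsf10-kd* livers. The median deviation of the genes of glutamine, glutamate, ornithine and ammonia handling was 0.155 in *Srsf10-kd* 2 and between -0.0649 and -0.0467 in the others. In both, the gap to the nearest liver divided by the range of the group was above Dixon's critical value for groups of 4. Of 60 groups examined, 2 were picked out in this way, and chance gives about 3. No member gene was picked out in either group.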

How the results depend on the processing

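The number of members past an adjusted p of 0.05 was 0 with edgeR, 2 with DESeq2 and 2 with limma-voom with sample quality weights (*Slc1a2* at -0.58 and -0.62, *Tcf7l2* at 0.65 and 0.51 on the log2 scale), and 0 under each other setting. Over all genes each fit tested, edgeR called 11, DESeq2 824, limma-voom 1814, edgeR without a filter on low counts 46, with the replicate block 59, with the length trend removed 7 and with a liver left out 0 to 544. Among the other listed genes edgeR called 0, DESeq2 8 and limma-voom 23, where the shares of all genes were 0.071%, 5.27% and 11.7%. Without a filter edgeR called 2 of them, with the replicate block 2, and with a liver left out 0 to 8, the last without *Ctrl* 3 (2 without *Srsf10-kd* 3). These counts describe the settings and are not a result about the lists. Some members turned in direction. *Glul* ran from -0.16 to 0.019 over the fits that left out a liver (0.019 without *Ctrl* 2), *Lgr5* from -0.12 to 0.22 (-0.010 when *Ctrl* 3 was left out, -0.12 for *Srsf10-kd* 1 and -0.031 for *Srsf10-kd* 2), *Znrf3* from -0.24 to 0.013 (0.013 without *Srsf10-kd* 3) and *Rhbg* from -0.048 to 0.51 (-0.048 without *Srsf10-kd* 3). *Znrf3* was at 0.043 with the length trend removed, and *Rhbg* at -0.082 with limma-voom. The cause was not tested. *Oat*, *Axin2*, *Tbx3*, *Rnf43*, *Slc1a2* and *Tcf7l2* kept their direction under all 16 alternatives. The replicate block called 0 members (lowest adjusted p 0.0743, *Axin2*, by edgeR), and 1 of the 4 same-numbered pairs correlated negatively (-0.18). Between 16 and 36 counts per liver limit *Rhbg*.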
